A study of Homo sapiens with 6 samples.

Results

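The 10 genes described here encode receptors and enzymes of lysophospholipid signaling, and they are S1PR1, S1PR2, S1PR3, SPHK1, SGPP1, LPAR1, LPAR2, LPAR6, ENPP2 and PLPP3. They are 10 of the 58676 gene identifiers in the count table of MRC5 human lung fibroblasts. The genes were chosen by name, with their measured group differences in these same 6 libraries already known, S1PR1 first among them. The differences of the 10 genes are therefore given as descriptions without p-values.

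MRC5 is an established line of human fetal lung fibroblasts. All libraries came from MRC5 cells kept for 24 h in conditioned media (CM) of a human alveolar type II (ATII) epithelial line engineered to respond to 4-hydroxytamoxifen (4-OHT). In the control ATII CM group (3 libraries) the ATII cells were the control culture, and in the 4-OHT ATII CM group (3 libraries) they had received it for 24 h. The comparison asks which fibroblast transcripts respond to medium from 4-OHT-treated epithelium. No library had fresh medium or 4-OHT alone, and the sources used here do not say whether 4-OHT remained in the medium, so that its own effect and that of secreted factors cannot be told apart.

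Sphingosine 1-phosphate (S1P) and lysophosphatidic acid (LPA) are small signaling lipids that act outside the cell on families of G protein-coupled receptors. S1P is made inside cells by sphingosine kinases, whereas most extracellular LPA is cut from lysophospholipids by autotaxin, the product of ENPP2. Membrane lipid phosphate phosphatases destroy both lipids at the cell surface, and in lung fibroblasts both lipids are known for effects on migration, contraction and matrix production. Serum carries both, and the ATII line is grown with calf serum; the lipids in the CM were not measured here.

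The libraries held 17691849 to 26389449 assigned counts. Each group had 3 libraries, and the labels do not say that they came from separate cultures, so that p-values measure only the spread between these samples. Of 19072 genes with at least 10 counts in sum, 1090 were differentially expressed genes (DEGs), with an adjusted p below 0.05 in edgeR's quasi-likelihood test. The first principal component, with 43.4% of the variance, separated the groups, and the second, with 23.3%, set control library 2 apart. All 9 fibroblast markers were present, with a summed level, in counts scaled to normalized library size (CPM), of 41020 to 44535 CPM in control and 42888 to 44629 CPM in 4-OHT libraries. That sum is mostly COL1A1 and COL1A2, which were no DEGs; COL3A1, PDGFRA, DCN and LUM rose and VIM fell. Of 8 endothelial markers, PECAM1 and CDH5 had 0 counts in every library, VWF had 5 to 12 counts per library, KDR, TIE1 and CLDN5 had 0 to 5, and EGFL7 had 142 to 204, at 7.90 ± 0.465 CPM in control and 7.66 ± 0.553 CPM in 4-OHT libraries (SD, n = 3). The summed endothelial level was 129 to 147 CPM in control and 171 to 180 CPM in 4-OHT libraries, nearly all of it TEK, a receptor for angiopoietins, at 128 ± 9.06 CPM against 167 ± 4.57 CPM (SD, n = 3, adjusted p = 0.000162 in edgeR). The part of endothelial cells in the values below was not tested. Leukocyte markers summed to at most 1.94 CPM and epithelial markers to at most 1.41 CPM in any library. Smooth muscle and pericyte markers summed to 538 to 544 CPM in control and 525 to 546 CPM in 4-OHT libraries, and of these 6 genes RGS5 rose and CSPG4 fell, the latter from 114 ± 4.19 to 91.6 ± 1.21 CPM (log2 fold change -0.32, SE 0.0386, adjusted p = 0.000143 in edgeR).

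The receptors S1PR1, S1PR2 and S1PR3 carried almost all of the S1P receptor reads, and 2 of them, S1PR1 and S1PR3, were higher after CM from 4-OHT-treated ATII cells. S1PR1, a Gi-coupled receptor known from lymphocyte egress and vascular development, lies at chr1:101236865-101243713 (GRCh38, plus strand). Its control libraries held 41.7, 41.9 and 41.3 CPM and its 4-OHT libraries 59.8, 63.1 and 59.0 CPM. The 3 control values lay within 1 CPM of each other, and every 4-OHT value was above all of them. The means were 41.6 ± 0.316 CPM and 60.6 ± 2.20 CPM (SD, n = 3), a 1.46-fold difference with a log2 fold change of 0.54 (SE 0.0425, 95% interval 0.45 to 0.63). These levels rest on 748 to 935 counts per control library and 1309 to 1574 per 4-OHT library.

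S1PR3, a receptor that couples to Gq and G12/13 as well as Gi, lies at chr9:88990863-89005010 (plus strand). The control libraries held 139, 144 and 136 CPM and the 4-OHT libraries 182, 176 and 180 CPM. The groups did not overlap, and the gap between them was several times the spread within either. The log2 fold change was 0.36 (SE 0.0356, 95% interval 0.28 to 0.43), or 28.3% higher.

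S1PR2, the receptor known above all for coupling to G12/13 and for holding back migration in many cell types, lies at chr19:10221433-10231331 (minus strand). Its libraries held 38.8, 40.6 and 38.8 CPM in control and 41.7, 41.1 and 39.9 CPM after 4-OHT ATII CM. The highest control value lay above the lowest 4-OHT value, so that the groups overlapped. Its log2 fold change was 0.06 (SE 0.0453), with a 95% interval of -0.04 to 0.15. S1PR2 shares 83 exon bases, 2.3% of its length, with DNMT1 on the same strand, and DNMT1 itself fell by 0.20 on the log2 scale (adjusted p = 0.00364 in edgeR). The part of those bases in the S1PR2 value was not tested.

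The remaining S1P receptors were at or near the floor. S1PR4, a receptor of blood cells, had 0 counts in all 6 libraries, where 3 counts correspond to 0.114 to 0.168 CPM. S1PR5, known from natural killer cells and oligodendrocytes, had 16, 11 and 10 counts in control and 23, 23 and 19 in 4-OHT libraries. Its 3 normalized 4-OHT values overlapped the control values, and its log2 fold change of 0.57 (SE 0.308) did not pass the test (adjusted p = 0.372, edgeR).

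The windows around the RefSeq start sites of S1PR1, S1PR3 and PLPP3 are shown because these members had the higher levels in all 4-OHT libraries with the most counts behind them, and that of S1PR2 because it was nearly level between the groups. Each window holds 250 bases before and 50 from the start, read 5′ to 3′ on the gene's strand (RefSeq, GRCh38.p14), and S1PR3 has 2 listed starts. Capitals mark matches, on either strand, to 7 motifs. These were the TATA box as TATAAA, the motif of Sp1-like factors (GC box) as GGGCGG, the motif of AP-1 factors as TGANTCA, the cyclic AMP response element as TGACGTCA, the motif of TEAD factors as CATTCC, the motif of STAT factors as TTCNNNGAA and the motif of forkhead factors as TGTTTAC.
S1PR1, chr1:101236769-101237068, plus strand: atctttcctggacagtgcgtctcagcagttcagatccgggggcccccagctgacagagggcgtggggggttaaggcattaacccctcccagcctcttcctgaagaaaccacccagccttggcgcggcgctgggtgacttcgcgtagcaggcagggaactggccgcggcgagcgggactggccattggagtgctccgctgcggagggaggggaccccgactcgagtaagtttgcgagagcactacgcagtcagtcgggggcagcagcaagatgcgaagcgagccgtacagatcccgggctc
S1PR3, first start, chr9:88990613-88990912, plus strand: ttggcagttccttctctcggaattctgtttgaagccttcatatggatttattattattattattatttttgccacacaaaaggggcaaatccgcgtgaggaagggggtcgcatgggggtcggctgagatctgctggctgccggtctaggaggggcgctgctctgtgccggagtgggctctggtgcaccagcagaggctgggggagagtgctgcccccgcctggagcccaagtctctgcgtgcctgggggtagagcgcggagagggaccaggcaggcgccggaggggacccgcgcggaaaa
S1PR3, second start, chr9:88991218-88991517, plus strand: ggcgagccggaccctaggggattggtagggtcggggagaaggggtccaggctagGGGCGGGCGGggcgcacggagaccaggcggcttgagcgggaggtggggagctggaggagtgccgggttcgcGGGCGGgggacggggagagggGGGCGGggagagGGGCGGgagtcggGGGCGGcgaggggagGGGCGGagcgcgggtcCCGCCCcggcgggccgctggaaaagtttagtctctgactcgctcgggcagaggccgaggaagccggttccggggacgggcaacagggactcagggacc
PLPP3, chr1:56579514-56579813, minus strand: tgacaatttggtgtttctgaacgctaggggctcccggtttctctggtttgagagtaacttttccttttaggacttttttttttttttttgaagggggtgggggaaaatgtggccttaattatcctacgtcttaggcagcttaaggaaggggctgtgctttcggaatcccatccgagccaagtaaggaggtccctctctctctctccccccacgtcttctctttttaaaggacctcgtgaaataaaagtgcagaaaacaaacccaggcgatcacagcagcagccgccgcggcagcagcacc
S1PR2, chr19:10231282-10231581, minus strand: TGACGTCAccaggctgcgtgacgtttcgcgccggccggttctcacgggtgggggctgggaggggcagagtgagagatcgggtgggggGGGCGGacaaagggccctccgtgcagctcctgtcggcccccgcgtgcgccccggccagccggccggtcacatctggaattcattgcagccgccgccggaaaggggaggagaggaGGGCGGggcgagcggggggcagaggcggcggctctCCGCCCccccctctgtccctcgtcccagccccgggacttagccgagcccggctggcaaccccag

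None of the 7 motifs was found in the windows of S1PR1, PLPP3 and the first start of S1PR3. The second S1PR3 window held 8 matches to the GC box, 2 of them overlapping, and the S1PR2 window held 3 GC boxes and, at its first base, the cyclic AMP response element. Among 35116 RefSeq windows of this length, 45.0% hold the GC box, 14.0% the TEAD, 11.5% the TATA box, 7.71% the AP-1, 7.66% the STAT, 3.42% the forkhead and 1.85% the cyclic AMP response element letters. The GC content was 64.7% for S1PR1, 60.0% and 75.3% for the S1PR3 windows, 74.0% for S1PR2 and 49.0% for PLPP3, against a median of 58.7%. Windows were found for 8 of the 10 genes. SGPP1 had no entry, and ENPP2 was left out. A match in these letters is a description of the window and not a binding site.

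**Figure D1:**
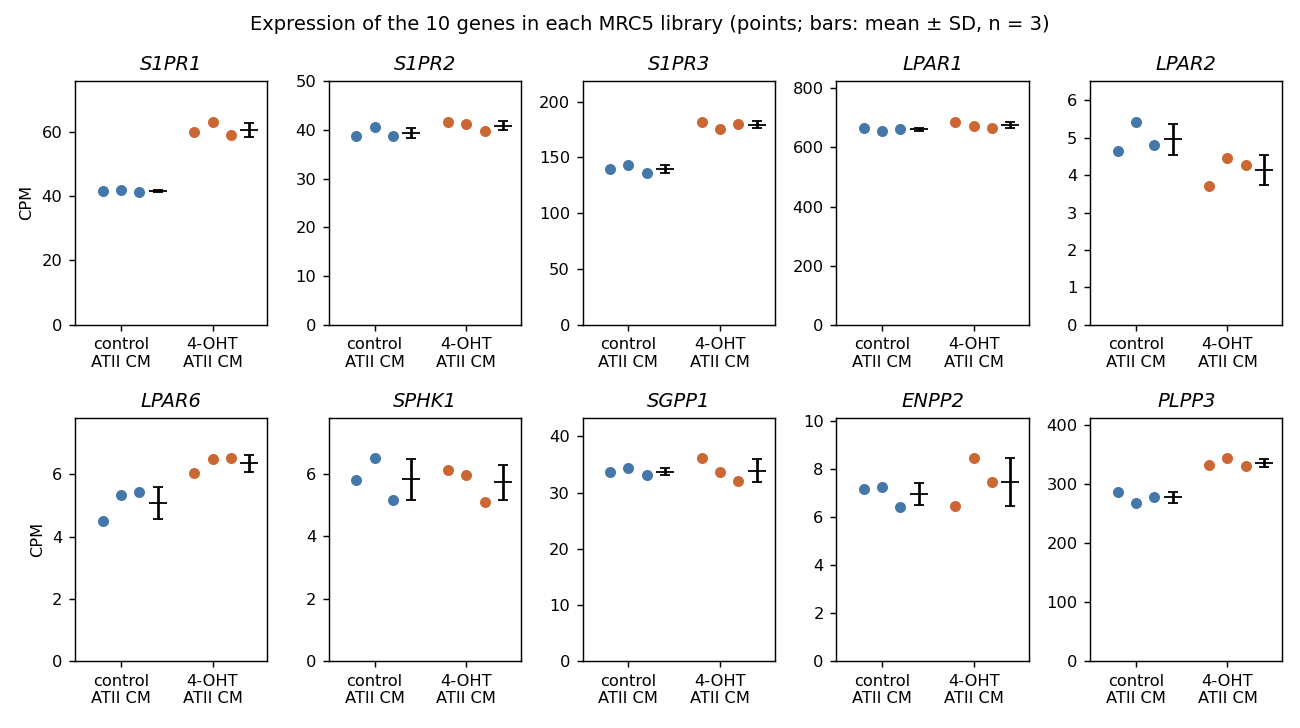
Points are the CPM of each of the 10 genes in the 3 control ATII CM libraries (blue) and the 3 4-OHT ATII CM libraries (orange), with the group mean ± SD (n = 3) in black and every axis starting at 0. S1PR1 moves from 41.6 to 60.6 CPM, S1PR3 and PLPP3 also separate without overlap, and LPAR1, the gene with the highest CPM, stays between 657 and 687 CPM.

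Levels were compared between receptors per kilobase of annotated exon (FPKM), using the length deposited with each gene. In control libraries S1PR1 was the lowest of the 3 main S1P receptors in FPKM, at 7.96 ± 0.0604 against 10.3 ± 0.268 for S1PR3 and 10.8 ± 0.286 for S1PR2 (SD, n = 3). The last 2 lay close together. In 4-OHT libraries S1PR3 was highest at 13.2 ± 0.228 FPKM, and S1PR1 at 11.6 ± 0.421 FPKM overlapped S1PR2 at 11.2 ± 0.257 FPKM. The log2 ratio of S1PR1 to S1PR2 went from -0.44 ± 0.0301 in control to 0.05 ± 0.0489 in 4-OHT libraries, and the library values of the groups did not overlap. The log2 ratio of S1PR1 to S1PR3 went from -0.37 ± 0.0269 to -0.19 ± 0.0736, also without overlap. These ratios depend on the deposited lengths, which cover every annotated exon and are 5223 bases for S1PR1, 3643 for S1PR2 and 13578 for S1PR3, but the change of a ratio between groups does not.

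Summed over the family, the S1P receptor level was 29.3 ± 0.616 FPKM in control and 36.4 ± 0.551 FPKM in 4-OHT libraries. The share of S1PR1 in that sum was 27.2% ± 0.380 in control and 31.9% ± 0.917 in 4-OHT libraries. The share of S1PR2 went the other way, from 36.9% ± 0.348 to 30.9% ± 0.291, although its own level was nearly the same in both groups. S1PR3 held 35.1% ± 0.188 and 36.3% ± 0.870. S1PR5 held under 1.1% in every library. Unlike the change of a ratio, shares of a summed FPKM and their change between groups depend on the deposited lengths. In CPM the control mean was 140 for S1PR3, 41.6 for S1PR1 and 39.4 for S1PR2.

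**Figure D2:**
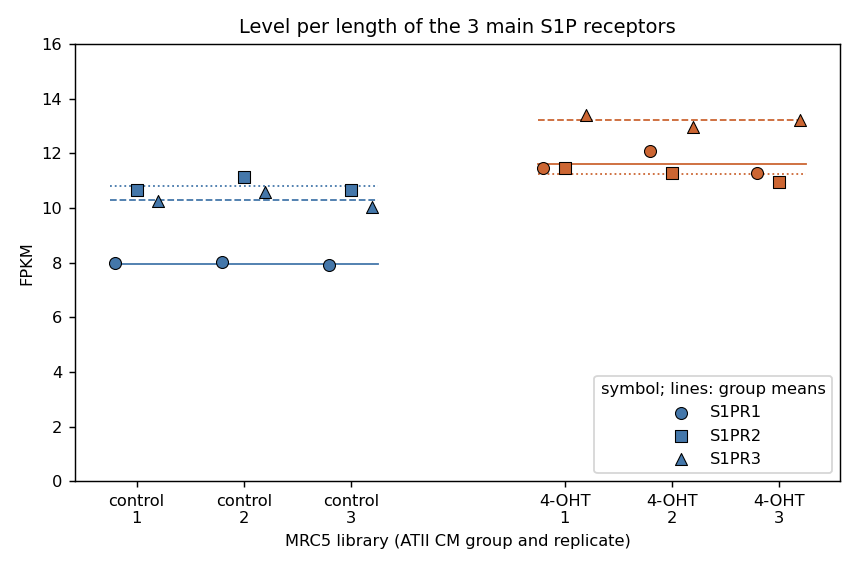
The level per length (FPKM, axis from 0) of S1PR1 (circles), S1PR2 (squares) and S1PR3 (triangles) is plotted for each library, with control in blue, 4-OHT in orange and horizontal lines at the group means (n = 3). S1PR1 lies below both other receptors in all control libraries and level with or above S1PR2 in the 4-OHT libraries, while S1PR2 stays between 10.6 and 11.4 FPKM.

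Among the LPA receptors, the dominant gene LPAR1 was nearly level between the groups, and of the scarcer ones LPAR3 was a DEG while LPAR2 and LPAR6 were not. LPAR1, the receptor studied most in lung fibrosis, lies at chr9:110873263-111038458 (minus strand). It was measured at 667, 657 and 661 CPM in control and at 687, 674 and 667 CPM in 4-OHT libraries. The highest control value and the lowest 4-OHT value nearly coincided, and the groups overlapped. The log2 fold change of LPAR1 was 0.03 (SE 0.0282, 95% interval -0.03 to 0.09), the narrowest interval of the 10 genes. At 159 ± 1.19 FPKM in control and 163 ± 2.52 FPKM in 4-OHT libraries, LPAR1 made up 95.8% ± 0.209 and 95.2% ± 0.190 of the summed LPA receptor level.

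LPAR6, a receptor of the P2Y-related branch known from hair follicle biology, lies at chr13:48389567-48444704 (minus strand) inside RB1, which runs on the opposite strand. Its levels were 4.50, 5.32 and 5.43 CPM in control and 6.03, 6.50 and 6.51 CPM in 4-OHT libraries. All 4-OHT values were above all control values, but the levels rest on only 95 to 171 counts per library. Its log2 fold change was 0.32 (SE 0.117, 95% interval 0.07 to 0.57), and it was not a DEG. The host gene RB1 shares no exon base with it and had a log2 fold change of -0.01 (SE 0.0411, adjusted p = 0.931 in edgeR).

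LPAR2, an LPA receptor with a tail that binds PDZ proteins, lies at chr19:19623668-19628930 (minus strand) and was the 1 member with all 4-OHT values below all control values. Its 6 values were 4.64, 5.43 and 4.81 CPM in control and 3.70, 4.45 and 4.26 CPM in 4-OHT libraries, on 81 to 112 counts per library. The gap between the groups was small against the spread within them. Its log2 fold change was -0.25 (SE 0.131), with a 95% interval of -0.53 to 0.03 that includes 0.

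Of the 3 LPA receptor genes that are no members, LPAR3 was a DEG. LPAR3, a Gi- and Gq-coupled receptor, had 13.9, 13.9 and 15.0 CPM in control and 18.5, 19.2 and 17.8 CPM in 4-OHT libraries, and the groups did not overlap. It rose by a log2 fold change of 0.37 (SE 0.0708, adjusted p = 0.00465 in edgeR), from 4.03 ± 0.191 to 5.22 ± 0.193 FPKM. LPAR4 had 3 to 11 counts per library (log2 fold change 0.67, SE 0.543, adjusted p = 0.598 in edgeR), and LPAR5 had 1 count over all libraries. Even after the rise LPAR3 held 3.06% ± 0.0993 of the summed LPA receptor level.

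The genes of the enzymes that make and recycle S1P did not pass the test, which does not show that they did not differ. SPHK1, the sphingosine kinase that phosphorylates sphingosine to S1P, lies at chr17:76376584-76387860 (plus strand). SPHK1 was measured at 5.81, 6.50 and 5.16 CPM in control and at 6.12, 5.98 and 5.10 CPM in 4-OHT libraries. The highest and lowest values of both groups interleaved. SPHK1 shares 59 exon bases, 1.3% of its length, with PRPSAP1 on the opposite strand (log2 fold change 0.04, SE 0.0525). Its log2 fold change was -0.02 (SE 0.125, 95% interval -0.29 to 0.25), so that a difference of up to about that size in either direction could not be seen on 116 to 149 counts per library.

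SGPP1, the endoplasmic reticulum phosphatase that returns S1P to sphingosine, lies at chr14:63684214-63728039 (minus strand). The libraries held 33.7, 34.3 and 33.1 CPM in control and 36.1, 33.6 and 32.0 CPM in 4-OHT libraries. The 4-OHT values spanned both sides of the control values. The difference of SGPP1 on the log2 scale was 0.01 (SE 0.0536, 95% interval -0.11 to 0.12). The signs of SPHK1 and SGPP1 each turned in 2 of 13 alternative analyses.

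The list of S1P synthesis and breakdown genes adds SPHK2, SGPP2 and the S1P lyase SGPL1. None of its 5 tested genes was a DEG in edgeR, DESeq2 or limma-voom, and 1, SGPL1, had an unadjusted p under 0.05 in each. With 5.72% of all genes tested being DEGs in edgeR, nothing is read from so few genes. SGPL1, which destroys S1P irreversibly, had 76.6 ± 1.52 CPM in control and 84.1 ± 2.63 CPM in 4-OHT libraries (log2 fold change 0.13, SE 0.0391, adjusted p = 0.0610 in edgeR), and passed the test in 2 of 13 alternatives. SPHK2, the nuclear and mitochondrial kinase isoform, had a log2 fold change of -0.11 (SE 0.0822, adjusted p = 0.544 in edgeR), and shares 246 exon bases (4.1%) with the abundant ribosomal gene RPL18 and 661 (11.0%) with DBP, both on the opposite strand. SGPP2 had 0 to 4 counts per library. None of the 7 tested genes for S1P export and carriers was a DEG by any of the 3 tools, where 5.72% of all genes tested were DEGs in edgeR; 1 higher and 1 lower gene had an unadjusted p under 0.05 in edgeR, none in DESeq2, and 1 higher gene in limma-voom.

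ENPP2, the secreted lysophospholipase D that makes LPA, was low in these fibroblasts. ENPP2 had 7.17, 7.28 and 6.44 CPM in control and 6.49, 8.46 and 7.46 CPM in 4-OHT libraries. The lowest 4-OHT value lay within the control range, and the groups overlapped. The log2 fold change of ENPP2 was 0.11 (SE 0.115, 95% interval -0.14 to 0.35). Whether each gene on the hand-written list for LPA production makes LPA in these cells was not tested. Of its 11 other genes, 9 were tested and 2 rose, none fell, where 2.95% of all genes tested rose. They were GDE1, a glycerophosphodiester phosphodiesterase (log2 fold change 0.16, SE 0.0373, adjusted p = 0.0180), and PLA2G4A, the cytosolic phospholipase A2 alpha that frees arachidonic acid (0.56, SE 0.147, adjusted p = 0.0333, both in edgeR). GDE1 kept its call without control library 2 but lost it without any other library (highest adjusted p 0.105, without control library 3). PLA2G4A lost its call with DESeq2 and without control library 1 or 3 or 4-OHT library 1 or 2 (highest adjusted p 0.151, without control library 1). Its call was also lost with the replicate number as a block.

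The phosphatase that degrades these lipids at the cell surface was the member with the highest level per length after LPAR1, and it was also higher after 4-OHT ATII CM. PLPP3, which dephosphorylates LPA and S1P, lies at chr1:56494747-56645301 (minus strand). PLPP3 was measured at 286, 268 and 279 CPM in control and at 332, 344 and 331 CPM in 4-OHT libraries. Every 4-OHT value was above every control value. The log2 fold change was 0.27 (SE 0.0345, 95% interval 0.20 to 0.35), or 20.9% higher, from 52.5 ± 1.75 to 63.5 ± 1.32 FPKM. A same-strand gene without a symbol shares 576 of its exon bases, or 10.9%, and had 14 counts in all libraries together.

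Of the 11 other tested genes of lipid phosphate phosphatases and related proteins, 2 rose, none fell and 9 did not pass, a share of 18.2% against 5.72% of all genes tested. PLPP1, a close relative of PLPP3 with the same activity, rose from 42.1 ± 2.19 to 54.9 ± 1.74 CPM (log2 fold change 0.38, SE 0.0470, adjusted p = 0.000154 in edgeR). It shares 481 exon bases (23.9%) with MTREX on the opposite strand, and MTREX had a log2 fold change of -0.03 (SE 0.0420, adjusted p = 0.800). PLPP2 overlapped between the groups, at a log2 fold change of 0.16 (SE 0.0847, adjusted p = 0.349). In FPKM the control levels of the family were 52.5 for PLPP3, 20.9 for PLPP1 and 1.66 for PLPP2. PLPPR3, a related membrane protein without known phosphatase activity, rose from 12.0 ± 1.45 to 16.8 ± 0.327 CPM (log2 fold change 0.49, SE 0.0855, adjusted p = 0.00245 in edgeR). PLPPR5, named after its values were seen, had 5, 10 and 8 counts in control and 4, 1 and 0 counts in 4-OHT libraries (log2 fold change -2.35, SE 0.760, unadjusted p = 0.00726, adjusted p = 0.0918 in edgeR), the only lower gene of the list with an unadjusted p under 0.05 in edgeR.

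Per length, the members fell into 3 ranges in control libraries. LPAR1 and PLPP3 stood far above the others, at 159 ± 1.19 and 52.5 ± 1.75 FPKM. S1PR2, S1PR3, SGPP1 (10.2 ± 0.179 FPKM) and S1PR1 lay between 7.90 and 11.1 FPKM in every control library. LPAR2 (1.66 ± 0.140 FPKM), SPHK1 (1.32 ± 0.151 FPKM), LPAR6 (1.17 ± 0.117 FPKM) and ENPP2 (1.03 ± 0.0675 FPKM) were lowest, and the library values of SPHK1 overlapped those of LPAR6, and those of LPAR6 overlapped those of ENPP2.

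**Figure D3:**
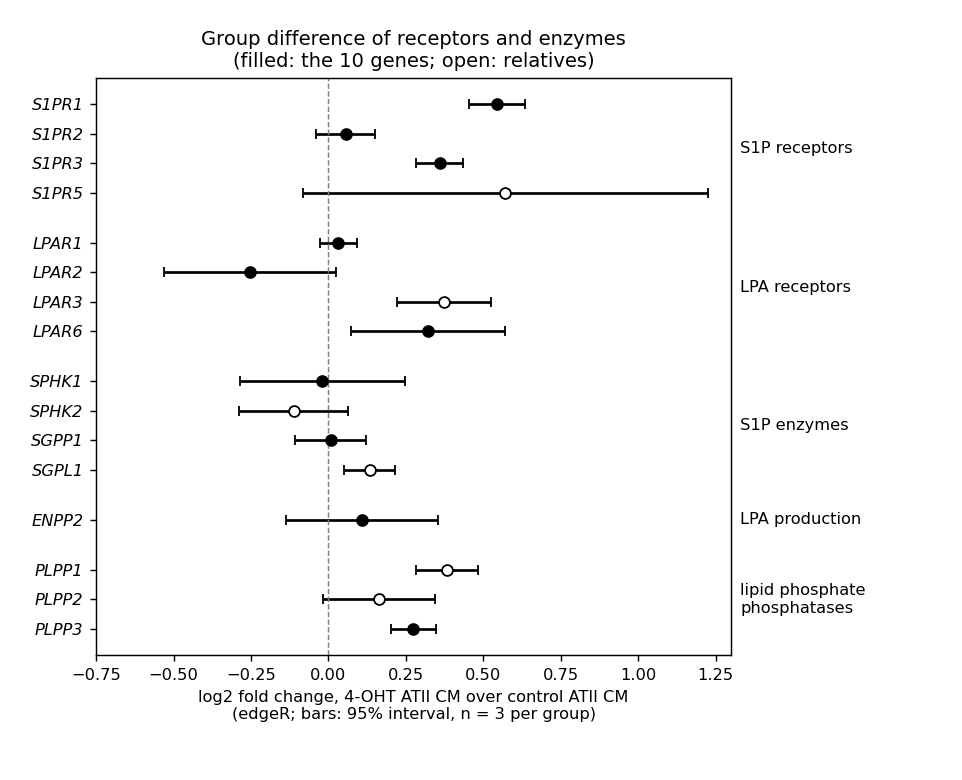
Log2 fold changes of 4-OHT ATII CM over control ATII CM are plotted with 95% intervals (edgeR, n = 3 per group) for the 10 genes (filled) and relatives (open), grouped by role. The intervals of S1PR1 (0.45 to 0.63), S1PR3, LPAR3, LPAR6, SGPL1, PLPP1 and PLPP3 lie above 0, whereas those of LPAR1, S1PR2 and SGPP1 are narrow and include it. The intervals are not adjusted for the number of genes tested, and LPAR6 and SGPL1 were no DEGs. The 10 genes were chosen with this contrast known, so that their intervals are a description.

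All 10 genes passed the filter on low counts, and 3 of them, S1PR1, S1PR3 and PLPP3, were DEGs, all higher. Of all genes tested 5.72% were DEGs, with 2.95% higher and 2.76% lower. None of the 10 was a lower DEG in edgeR, DESeq2 or limma-voom, and none had an unadjusted p under 0.05 in that direction by any of the 3. In 5 of the 10 the library values did not overlap between the groups, as in 22.1% of all genes tested, and in 4 of the 10 the 4-OHT values were the higher, as in 11.7%. Because the 10 genes were chosen with this contrast known, nothing is read from these counts. The median log2 fold change was 0.08 over the 10 genes and -0.00204 over all genes tested, with 8 genes higher and 2 lower. In these bulk libraries fewer cells of a type and less RNA per cell cannot be told apart.

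The genes whose profile over the 6 libraries was most like that of S1PR1 were named by the root mean square difference of log2 CPM after centering each gene on its own mean, among 9201 candidates with a mean of at least 10 CPM. The nearest was TSPAN12, a tetraspanin of Norrin and frizzled signaling, at a distance of 0.0281, with 49.7, 53.0 and 51.8 CPM in control and 74.9, 78.3 and 74.2 CPM in 4-OHT libraries. RASL11A, a small GTPase, followed at 0.0398, LXN, an inhibitor of carboxypeptidases, at 0.0507, SAMD11 at 0.0555 and SHISA3 at 0.0602. In these genes too every 4-OHT value was above every control value. Among the members, S1PR3 stood at place 42 with a distance of 0.102 and PLPP3 at place 125 with 0.138. S1PR2 was at place 2270, LPAR1 at 3033 and SGPP1 at 4277, and the remaining members were below the level required. A gene with a group difference of like size is near by this measure, so that the order mostly restates the contrast.

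**Figure D4:**
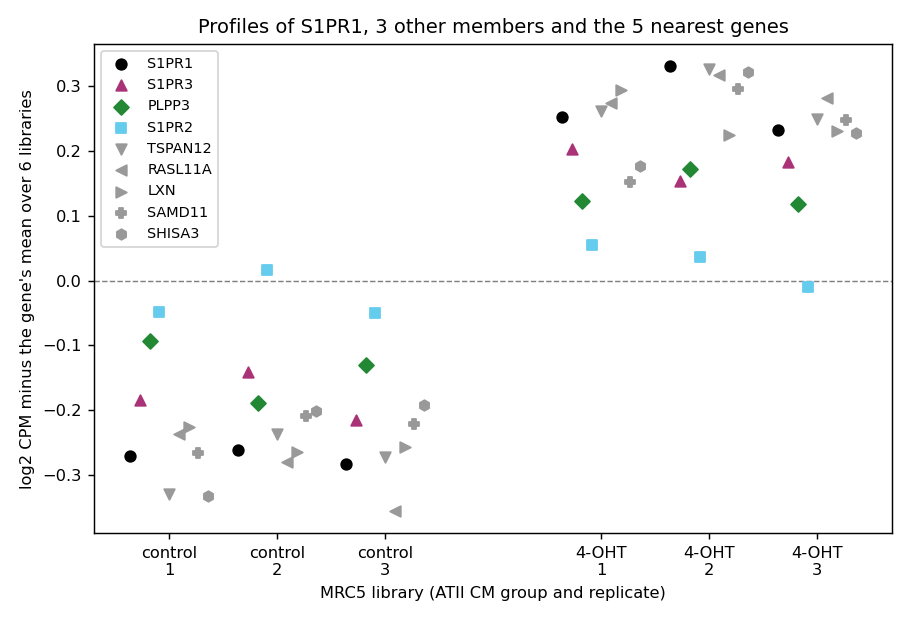
Each point is the log2 CPM of a gene in 1 library minus that gene's mean over the 6 libraries, for S1PR1 (black), S1PR3, PLPP3, S1PR2 and the 5 genes nearest to S1PR1 (grey); replicates have no order. The grey points lie near S1PR1 in every library, S1PR3 and PLPP3 lie nearer to 0, and S1PR2 lies closest to 0.

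Beyond the 10 genes, 112 other genes of lysophospholipid metabolism and signaling were listed with earlier results of these data known. Of 102 tested, 12 were higher DEGs and 2 were lower DEGs, or 13.7% against 5.72% of all genes tested, and 88 did not pass. With DESeq2, 7 of them were higher DEGs and 0 were lower DEGs, with 6 lower genes at an unadjusted p under 0.05, where 829 of all genes were DEGs. Limma-voom gave 12 and 2, as edgeR did. Their median log2 fold change was 0.02. Of the 14 calls, 5 held in all 13 alternatives, and they were LPAR3, PLPP1, PLPPR3, MBOAT2 and RGS5. The 13 leave out the fold requirement of 1.5. None of these 5 genes reached it in the edgeR fit, where their folds ran from 1.19 (MBOAT2) to 1.43 (RGS5). Each of the 9 others was lost in at least 2 alternatives. Without control library 3 the count of DEGs in this list was 6, without control library 1 or 4-OHT library 1 it was 8, and without 4-OHT library 2 or 3 it was 7.

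Among 13 acyltransferase genes that attach acyl chains to lysophospholipids, 1 rose and 1 fell, where 5.72% of all genes tested were DEGs. MBOAT2, a lysophospholipid acyltransferase of the endoplasmic reticulum, rose from 49.6 ± 0.845 to 59.2 ± 1.85 CPM (log2 fold change 0.25, SE 0.0409, adjusted p = 0.00133 in edgeR). LPCAT1, the enzyme of surfactant phosphatidylcholine remodeling, fell by 0.85 on the log2 scale (SE 0.217, adjusted p = 0.0306 in edgeR), but its values of 17.5, 22.3 and 13.4 CPM in control and 5.85, 14.0 and 9.17 CPM in 4-OHT libraries overlapped, and the call was lost with DESeq2 (adjusted p = 0.329) and without control library 1 or 2 or 4-OHT library 1 or 3 (highest adjusted p in edgeR 0.100).

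Of 27 tested genes for the supply of ceramide and sphingosine, 2 rose and 1 fell, a share of 11.1% against 5.72% of all genes tested. CERS2, which makes ceramides with very long acyl chains, had a log2 fold change of 0.18 (SE 0.0381, adjusted p = 0.0101), SPTLC3, a subunit of serine palmitoyltransferase, one of 0.40 (SE 0.110, adjusted p = 0.0415), and SMPD4, a neutral sphingomyelinase, one of -0.16 (SE 0.0394, adjusted p = 0.0213, all in edgeR). CERS2 shares 948 exon bases (20.4%) with SETDB1 (log2 fold change -0.10, SE 0.0830, adjusted p = 0.616) and SMPD4 shares 815 (11.1%) with MZT2B (log2 fold change -0.09, SE 0.0532, adjusted p = 0.419, both in edgeR), each on the opposite strand. CERS2 lost its call without control library 3 (adjusted p = 0.0855) or 4-OHT library 3 (adjusted p = 0.0867). SPTLC3 lost its call with DESeq2 and without control library 2 or 3 or 4-OHT library 1 or 2 (highest adjusted p 0.163, without control library 3). SMPD4 lost its call with DESeq2 and without control library 3 or any 4-OHT library (highest adjusted p 0.0958, without 4-OHT library 1).

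Downstream of the receptors, most signaling genes did not pass the test. GNAI1, an inhibitory G protein alpha subunit, rose (log2 fold change 0.15, SE 0.0395, adjusted p = 0.0346 in edgeR). Of 13 tested genes for receptor desensitization, 3 rose and none fell, where 2.95% of all genes tested rose; with DESeq2, 1 rose. They were RGS5, a regulator of G protein signaling, from 9.03 ± 0.848 to 12.9 ± 0.542 CPM (log2 fold change 0.52, SE 0.0895, adjusted p = 0.00238), RGS2, which acts on Gq (0.23, SE 0.0595, adjusted p = 0.0289), and the receptor kinase GRK5 (0.14, SE 0.0373, adjusted p = 0.0330, all in edgeR). RGS5 shares 534 exon bases (7.8%) with a same-strand gene without a symbol that had 71 counts in all libraries together. With DESeq2, RGS5 alone of these 4 was a DEG. GNAI1 and GRK5 kept their calls without control library 2 but lost them without any other library (highest adjusted p 0.162 and 0.207). Both calls were also lost with the replicate number as a block. RGS2 lost its call without control library 1 or 3 or 4-OHT library 2 or 3 (highest adjusted p 0.160, without 4-OHT library 2). Of 10 early or serum-type target genes, 1 fell, the matricellular gene CCN1, from 911 ± 7.32 to 807 ± 73.6 CPM (log2 fold change -0.18, SE 0.0474, adjusted p = 0.0400 in edgeR), and none rose, where 2.76% of all genes tested fell. The call of CCN1 was lost without control library 1 or 3 or 4-OHT library 1 or 3 (highest adjusted p 0.146, without 4-OHT library 1).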

How the data were processed

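Polyadenylated RNA was sequenced as paired reads (2 × 150). Per the labels and the submitters' processing notes, the authors trimmed reads with Trim Galore, aligned them to GRCh38 with HISAT2 2.1.0 and counted them with featureCounts 1.6.5. The deposited values are raw counts per gene, and a deposited length column gives the exon bases of each gene. The strand setting, the treatment of multi-mapping reads and the annotation release are not given in the sources used here, so that reads of overlapping genes cannot be assigned with certainty. The table had 58721 lines for 58676 identifiers; 45 identifiers on more than one line were summed.

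Genes with at least 10 counts in sum over 6 libraries were fitted with edgeR 4.0.16 (R 4.3.3; TMM, quasi-likelihood test, group as the only term, Benjamini-Hochberg adjustment over all genes). CPM divided counts by TMM-scaled totals, and FPKM divided CPM by the deposited length in kilobases. Intervals and floors cover the model's error or counting error only. The scripts were tested on simulated data. The 13 alternatives were DESeq2 1.42.0, limma 3.58.1 (voom), other size factors, other filters, a replicate block and leaving out each library. A fold requirement of 1.5 was applied apart from these 13.

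The members and gene lists were chosen with earlier results of these data known. Genes named are the members, all S1P and LPA receptors, SPHK2, SGPP2, SGPL1, PLPP1 and PLPP2, other listed genes that were DEGs, genes overlapping a named gene, and the 5 nearest profiles to S1PR1. PLPPR5, which was no DEG, was named after its values were seen, and marker genes were named as checks. The planned comparison of receptor proteins was not made, and some items are not reported here.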

Additional observations from a re-analysis of the deposited data

How the results depend on the processing

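Over 13 alternatives the log2 fold change was 0.51 to 0.56 for S1PR1, 0.34 to 0.38 for S1PR3 and 0.25 to 0.29 for PLPP3. The members were chosen with these libraries known, so that these ranges are a description and no support for the calls. With a required change of 1.5-fold, 0 of the 10 members were DEGs in edgeR, and 92 of all genes were. With DESeq2, 7 of the other lysophospholipid genes were DEGs in place of 14. Leaving out 1 library gave 533 to 1530 DEGs over all genes; the count fell to 663 without control library 3, 533 without 4-OHT library 2 and 615 without 4-OHT library 3. The number of other lysophospholipid genes among the DEGs was 6 to 17 over these 6 fits, the number of members 3 in each, and the members' median log2 fold change 0.04 to 0.12. With the replicate number as a block there were 985 DEGs, among them 3 members and 11 other lysophospholipid genes. PLA2G4A (adjusted p = 0.0548), GNAI1 (0.0597) and GRK5 (0.0593) were not called in that fit. The deviations of same-numbered libraries from their group means correlated at -0.0145, -0.104 and -0.0931, and no library correlated best with its own number. These values give no sign of pairing by number, but 3 libraries per group are too few to settle it. Members under 10 CPM rest on 81 to 211 counts per library, which limits what can be seen of them.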
